A study of Caenorhabditis elegans with 2 samples.

Results

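The 252 peaks of SCC-1 on the X chromosome of Caenorhabditis elegans are described here, chosen as every peak that the deposited list places on X, out of 4534 peaks in all. They come from 1 chromatin immunoprecipitation (ChIP-seq) library made with an affinity-purified rabbit antibody against SCC-1. A library of input DNA is the only other sample, and no file of it was used here. Both libraries are from whole hermaphrodites of the strain fem-2(b245), genotype fem-2(b245)III, so the mutation is shared by ChIP and input and no wild type is at hand. The stage label is a young adult that contains a germline, while the growth protocol speaks of gravid adults, and the series gives a temperature of 20 °C. Whole worms hold germline and somatic nuclei, and a peak cannot be traced to either. With 1 library there is no replicate error and no test over samples. The 95% intervals given below cover counting error only and treat neighbouring peaks as independent, which they need not be.

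SCC-1 is the kleisin of mitotic cohesin, the subunit that closes the ring around sister chromatids and that separase cuts at anaphase. Cohesin also holds chromatin loops, and its sites on chromosomes are set by where it is loaded and where it halts. The X of hermaphrodites is bound along its length by the dosage compensation complex, which contains a condensin, a ring related to cohesin, and most of its genes are kept silent in germ cells for much of their development. Worm chromosomes are holocentric, with no single centromere in the centre, and their ends are known to recombine more often than their centres, most clearly on the autosomes. The gene fem-2 encodes a phosphatase that promotes male fate.

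Each peak has a first and a last base in the WormBase build WS220, counted from 1, and a score deposited by the authors. The scale of the score is not given in the sources used here. On X, scores ran from 50.5 to 3182 with a median of 178 and quartiles of 91.6 and 713. The value 3100 was shared by 30 X peaks, and by 437 peaks of the whole list, so the 31 X peaks at 3100 or more were treated as 1 class at the ceiling of the score. Peaks scoring under 100 are called weak here, and there were 68 of them. X was taken to end with its last peak at base 17712300.

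The distribution along X had a sparse centre between 2 denser ends. X was divided into 4 equal parts, of which the first is called the left part (bases 1 to 4428075), the last the right part (13284226 to 17712300) and the 2 between them the centre. The left part held 79 peaks, the right part 75 and the centre, which is as long as both together, 98. The density was 17.8 peaks per Mb in the left part (14.1 to 22.2) and 16.9 in the right part (13.3 to 21.2), against 11.1 in the centre (8.98 to 13.5).

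The left part was thus 1.61 times as dense as the centre (95% interval 1.18 to 2.19) and the right part 1.53 times (1.12 to 2.09). Peaks covered 2.73% of the bases of the left part and 2.55% of those of the right part, against 1.59% in the centre. Much of the excess at the left end lay near the tip. Without the outermost 0.5 Mb at each end, the ratio of the left part to the centre was 1.33 (0.947 to 1.86), an interval that includes equal density, and that of the right part was 1.43 (1.02 to 1.98). With each group of close peaks counted once, the ratios were 1.33 (0.920 to 1.92) at the left and 1.59 (1.12 to 2.25) at the right. At the right, the interval included equal density when the outer 2 of 10 equal parts were set against the other 8 (1.38, 0.909 to 2.03). It also did for the higher-scoring 50% of the peaks (1.5, 0.946 to 2.36).

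The left and the right part did not differ by more than counting error, with a ratio of 1.05 (0.758 to 1.46). The order of the 2 ends turned when 1 group of 10 peaks near the left tip was left out (0.920) and when each group was counted once (0.839). It also turned without the outermost 0.5 Mb at each end (0.935). At the very tips, the first 500 kb held 21 peaks, of which 5 were at the ceiling, and the last 500 kb held 13, of which 1 was at the ceiling.

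**Figure D1:**
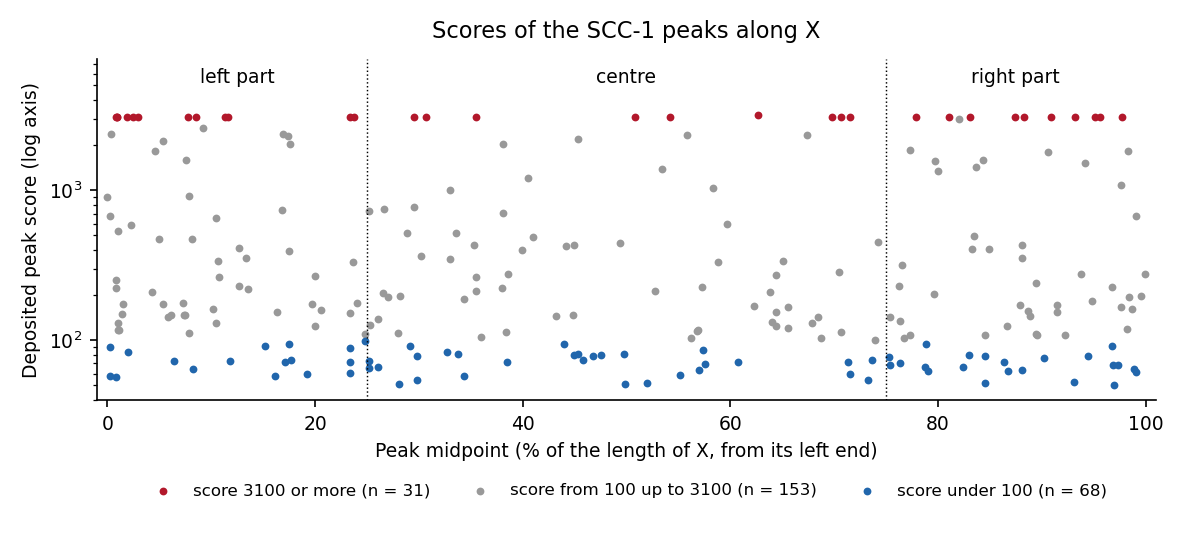
Deposited score (log axis) of each of the 252 X peaks against its midpoint as a percentage of the length of X. Dotted lines bound the left part, the centre and the right part, with 79, 98 and 75 peaks. Ceiling peaks (31) form the top row, and weak peaks (68) are seen along the whole chromosome.

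Counted in windows of 1 Mb from the left end, the first 4 windows held 27, 19, 12 and 11 peaks. The fifth window stood out from its neighbours with 22 peaks, 8 of them weak. The next 2 windows held 13 peaks each, and the following 4 held 9, 8, 8 and 10.

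The 4 Mb from 7000001 to 11000000 formed the emptiest stretch of this length among whole windows, with 35 peaks, or 8.75 per Mb (6.09 to 12.2). The windows from 11000001 to 13000000 held 11 peaks each. From there to the right end the counts were 17, 15, 16 and 13, and the last 0.712 Mb held 17. The first 2 Mb of X had 46 peaks, or 23.0 per Mb (16.8 to 30.7), against 8.75 per Mb in the empty stretch, and the 2 intervals did not overlap. Both stretches were picked out after their counts were seen.

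Base coverage followed the counts only in part. The first window had 41.2 kb in peaks and the ninth, from 8000001 to 9000000, 8.96 kb. The tenth window held the same number of peaks as the ninth, 8, and had 17.8 kb in peaks. In the tenth window 4 peaks scored 1000 or more, and in the ninth 1 did.

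**Figure D2:**
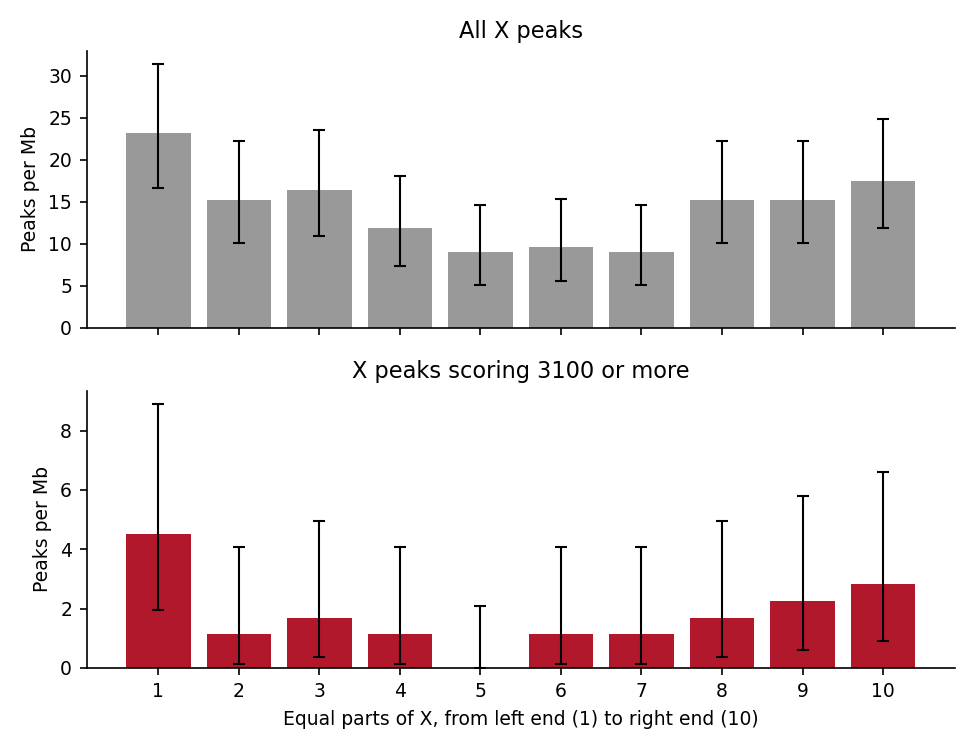
Peaks per Mb in 10 equal parts of X from the left end (1) to the right end (10), for all 252 peaks above and for the 31 ceiling peaks below. Lines are exact 95% Poisson intervals. All peaks ran from 23.1 per Mb in part 1 to 9.03 in parts 5 and 7 and 17.5 in part 10.

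The denser ends of X were set against the same division of the 5 autosomes. In this division no autosome had a ratio above 1 at either end. The left part relative to the centre ran from 0.466 on II (0.373 to 0.579) to 0.959 on IV (0.810 to 1.13), and the right part from 0.579 on V (0.475 to 0.701) to 0.982 on II (0.832 to 1.16). The interval of X at the left (1.18 to 2.19) lay above those of all 5 autosomes in this division. Its lower bound was 0.947 without the outermost 0.5 Mb, 0.920 with each group counted once and 1.02 without the group of 10 peaks. These lie below the upper bounds of both I and IV. For the higher-scoring 50% it was 1.1285, below that of IV only (1.1329). The lower bound at the left was 1.139 or more in the other alternatives. At the right, the interval of X (1.12 to 2.09) overlapped that of II and lay above those of I, III, IV and V. Its lower bound was 0.909 with the outer parts of 10 equal parts and 0.946 for the higher-scoring 50%. Both lie below the upper bound of III (0.962). In the other alternatives the lower bound at the right was 1.02 or more. The ratio of the left to the right part was 1.05 on X, and on the autosomes it ran from 0.475 on II to 1.46 on I, with 1.11 on V (0.875 to 1.41) nearest to that of X. In 10 equal parts, some outer parts of autosomes were denser than their whole chromosome. These were part 1 of I (68.4 against 67.6 per Mb) and IV (49.8 against 46.3), and part 10 of II (57.8 against 50.5) and III (69.0 against 66.8). The other autosomal outer parts were less dense than the whole. On X, parts 1 and 10 had 23.1 and 17.5 per Mb, against 14.2 over the whole.

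**Figure D3:**
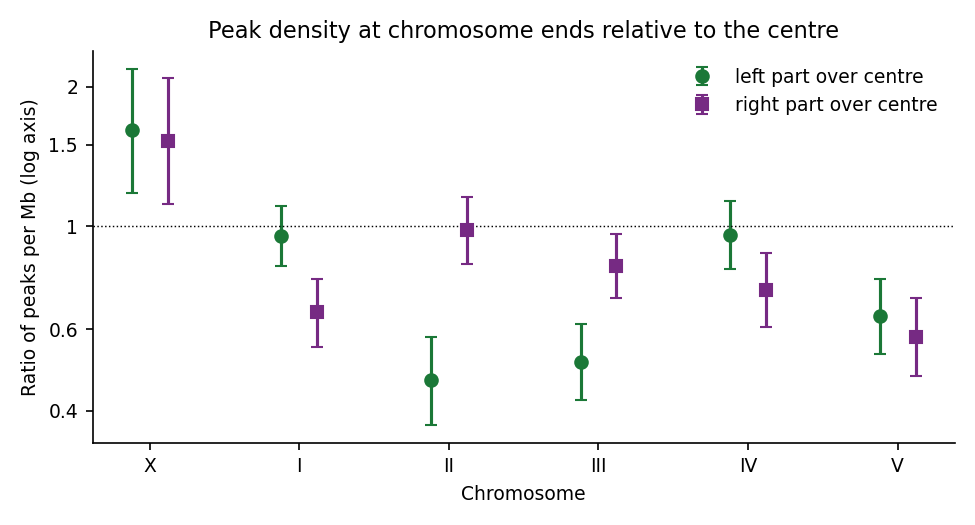
Ratio of peaks per Mb in the left part (circles) and the right part (squares) to the centre (log axis) for X and the 5 autosomes. Lines are exact 95% intervals for counting error. On X both ratios are above 1 (1.61 and 1.53), and on the autosomes they run from 0.466 to 0.982.

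Both strong and weak peaks were found at the ends and in the centre of X. The ceiling peaks numbered 12 in the left part, 10 in the right part and 9 in the centre, or 2.71 (1.40 to 4.73), 2.26 (1.08 to 4.15) and 1.02 (0.465 to 1.93) per Mb. The density of ceiling peaks was 2.67 times that of the centre at the left (1.03 to 7.17) and 2.22 times at the right (0.812 to 6.18). Without 1 group of 10 peaks near the left tip, which held 3 ceiling peaks, the ratio at the left was 2 (0.703 to 5.69). Ceiling peaks were also denser at some autosomal ends than in the centre, with ratios of 1.33 (0.692 to 2.51) at the left and 1.78 (0.982 to 3.20) at the right of II, 1.07 (0.609 to 1.84) at the right of III and 1.45 (0.943 to 2.23) at the right of IV. These intervals overlapped those of X. Weak peaks had 3.84 per Mb in the left part, 4.97 in the right part and 3.27 in the centre. As a share of each part's own peaks, the ceiling class made up 15.2% at the left (8.10 to 25.0) and 13.3% at the right (6.58 to 23.2), against 9.18% in the centre (4.29 to 16.7). These intervals overlapped widely, so a difference in the make-up of the parts was not detectable with 31 ceiling peaks. The median score was 219 in the left part, 171 in the right part and 168 in the centre, and the median widths were 1117, 1074 and 1100 bp.

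Read by class of score, the share of peaks in the 2 outer parts was 71.0% at the ceiling (22 of 31, 52.0 to 85.8) and 69.2% from 1000 up to 3100 (18 of 26, 48.2 to 85.7). It was 53.3%, 54.5%, 62.0% and 57.4% in the classes from 500 up to 1000, from 250 up to 500, from 100 up to 250 and from 50 up to 100. The outer parts make up 50% of the length, and over all scores they held 79 (left) and 75 (right) of the 252 X peaks. Every class thus had more than 50% of its peaks there, as did the X peaks as a whole. The shares of the 2 highest classes were not tested against that of all X peaks. The intervals of the classes overlapped, and the class from 500 up to 1000 had 15 peaks.

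Ceiling peaks were absent from long stretches that did hold other peaks. The longest stretch between neighbouring ceiling peaks ran from 6297147 to 9006791 over 2.71 Mb and held 24 peaks, of which 9 were weak and the highest scored 2190. The next longest, from 2064282 to 4144197, measured 2.08 Mb. The median distance between neighbouring ceiling peaks was 365 kb, and the shortest was 5.69 kb. Of the 18 windows, 4 had no ceiling peak. With strong peaks taken as those of 1000 or more, of which X had 57, the longest stretch without one was 1.03 Mb, from 12668774 to 13700206, and held 14 peaks with scores up to 455.

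Most X peaks had no other peak within 10 kb. Peaks were counted as a group when the gaps between them, edge to edge, were at most 10 kb. By this definition 155 X peaks were isolated and 97 (38.5%, 32.5 to 44.8) lay in 37 groups, of which 25 were pairs, 8 had 3 peaks and 4 had more. With a joining gap of 20 kb in place of 10 kb, 51.2% were grouped. On the autosomes the share of grouped peaks ran from 76.6% on IV (73.5 to 79.5) to 85.2% on III (82.8 to 87.4). A fixed distance of 10 kb joins fewer peaks where they are sparse, and the mean interval was 69.1 kb on X, against 12.9 kb on I to 25.4 kb on V.

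A pair of measures relative to each chromosome's own spacing is therefore given. Intervals shorter than 10% of the chromosome's mean made up 20.3% of the 251 intervals of X, against 20.6% on III to 29.7% on V. The coefficient of variation of the intervals was 1.15 on X, against 1.41 on IV to 1.62 on V. The X values were thus just below the lowest autosome in the first measure and further below in the second. Neither was tested.

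The left part had the largest share of grouped peaks. In the left part 40 of 79 peaks were grouped (50.6%, 39.1 to 62.1), in the right part 23 of 75 (30.7%, 20.5 to 42.4) and in the centre 34 of 98 (34.7%, 25.4 to 45.0). The left part, with nearly the same density as the right part, had a larger grouped share than it, although the intervals overlapped. A single group of 10 peaks supplied 10 of the 40 grouped peaks on the left, and without it the share there was 43.5% (30 of 69, 31.6 to 56.0).

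That group, the largest on X, ran from 142295 to 190220 over 47.9 kb, and 36.6% of its bases lay in peaks. Its 3 ceiling peaks, at 142295 to 144149, 160804 to 162520 and 168206 to 170419, were 1855, 1717 and 2214 bp wide. The other 7 peaks scored between 57.1 and 539. Its peaks thus covered both ends of the range of scores, with the weakest (151619 to 152664) lying 276 bp from a peak of 254 and 530 bp from one of 222. A group of 4 lay closer to the tip, from 42252 to 61239, with scores of 90.3, 57.8, 676 and 2366 in order from the left.

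The group of 5 peaks from 4137132 to 4148347 was the most compact of the groups with more than 3 peaks, with 74.7% of its 11.2 kb in peaks. It consisted of peaks scoring 153, 60.6, 89.3 and 71.3 followed by a ceiling peak of 4150 bp. The left edge of this group bordered the longest interval of X without a peak. A group of 4 with no ceiling peak followed from 4457594 to 4474081, with scores from 65.5 to 722. Both groups lie in the fifth window, whose 22 peaks include all members of both.

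**Figure D4:**
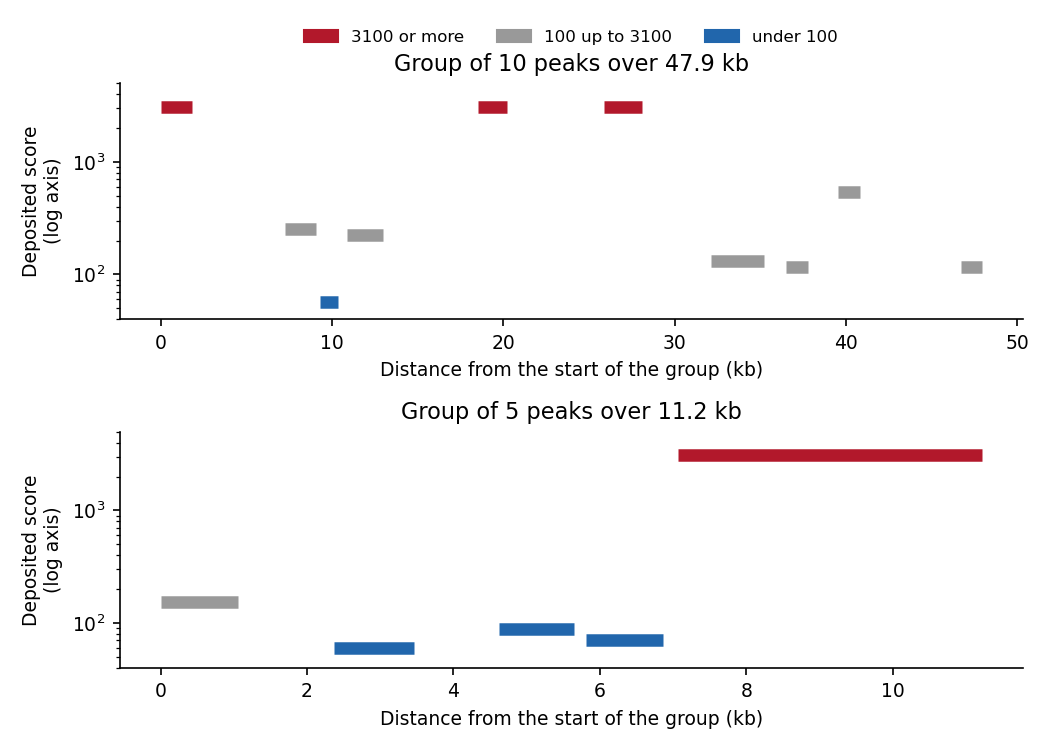
Peaks of the 2 groups with most members on X, drawn from their first to their last base against the distance from the start of the group, at the height of their score (log axis). The group of 10 spans 47.9 kb and has 3 ceiling peaks, and the group of 5 spans 11.2 kb and ends in 1 ceiling peak of 4150 bp.

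The remaining 8 groups of more than 2 peaks had 3 each. The tightest, from 7951234 to 7956814 and from 15606447 to 15612537, had 88.7% and 99.0% of their bases in peaks and highest scores of 429 and 434. In the second of these the peaks were 54 and 4 bp apart, so that a run of 6.09 kb was listed as 3 peaks. The group from 14969874 to 14976630 was the weakest, with no score above 108, and that from 11406803 to 11415695 had scores from 124 to 272. Those from 6285989 to 6297146 and from 6737229 to 6750781 were led by peaks at the ceiling and at 2050. The widest-spaced, from 13513958 to 13527955 and from 1374470 to 1390209, were led by peaks at 230 and at the ceiling. Over all 37 groups, 8 held a ceiling peak, 20 held a weak peak and 4 held both, and in 14 groups every score was under 250.

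Grouped peaks had a lower median score than isolated ones, by less than counting error. The median score was 154 for the 97 grouped peaks (quartiles 94.1 and 470) and 205 for the 155 isolated peaks (91.5 and 1276), a difference of -50.8 with an interval of -179 to 33.6 that includes 0. The ceiling class made up 10.3% of the grouped peaks (5.06 to 18.1) and 13.5% of the isolated ones (8.59 to 20.0), and weak peaks made up 26.8% and 27.1%. On the autosomes the difference in median score ran from -153 on IV to 68.0 on I. Grouped X peaks had a median width of 1205 bp and isolated ones of 1068 bp, a difference of 137 bp with an interval of -6.67 to 222 that includes 0. Without the group of 10 peaks near the left tip the difference in width was 47 bp, and after merging peaks under 1000 bp apart it was 87 bp. With a joining gap of 5 kb it was 168 bp, with an interval of 14.5 to 245 that lies above 0.

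Close neighbours were found for strong and for weak peaks. Of the ceiling peaks 10 of 31 were grouped (32.3%, 16.7 to 51.4), and of the weak peaks 26 of 68 (38.2%, 26.7 to 50.8). The peak nearest to a ceiling peak had a median score of 183, and the peak nearest to a weak peak one of 148, a difference of 34.8 with an interval of -177 to 223. For 3 of the 31 ceiling peaks the nearest peak was also at the ceiling, and for 9 it was weak. The rank correlation of the scores of neighbouring peaks was close to 0 over the 251 neighbouring pairs of X (Spearman's rho = 0.03), which come from 1 library and share peaks between successive pairs. The same value on the autosomes ran from -0.06 on III to 0.10 on IV.

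Few X peaks had a very close neighbour. In 16 places on X the gap between peaks was under 1000 bp, with a median gap of 229 bp. In 11 of the 16 pairs (68.8%, 41.3 to 89.0) at least 1 member was weak, against 113 of all 251 neighbouring pairs (45.0%), a share within that interval. Some peaks belong to 2 pairs, and the 11 pairs rest on 9 weak peaks. The higher-scoring member of the 16 pairs had a median score of 259 and the lower-scoring one of 75.7. Gaps under 1000 bp made up 6.37% of the intervals of X, against 17.1% on II to 18.8% on I. A fixed limit of 1000 bp is met less often where peaks are sparse. Scaled to 10% of each chromosome's mean interval, the share of short intervals was 20.3% on X, against 20.6% on III to 29.7% on V. Joining peaks across such gaps brought the X list to 236.

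The ceiling peaks farthest from any other peak were found mainly in the centre and the right part. Of the 10 most isolated, 5 lay in the centre, 4 in the right part and 1 in the left part. These parts held 9, 10 and 12 ceiling peaks in all. The peak at 9006792 to 9009574 was the most isolated, 170 kb from the next peak on one side and 204 kb on the other. It closed the long stretch without a ceiling peak, and its nearest neighbour had a score of only 50.8.

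Next in order were the peaks at 14361659 to 14363827, with 161 kb to its nearest neighbour, 9604671 to 9608175 with 138 kb, and 12362445 to 12363830 with 116 kb. Those at 13794474 to 13797842 and 15481556 to 15484477 were 93.1 and 83.5 kb from the next peak. The peak at 16929008 to 16939824 is also the widest on X and was 76.4 kb from its nearest neighbour, itself at the ceiling. The last 3, at 5428886 to 5430174, 516035 to 517775 and 11093510 to 11094720, had distances of 73.0, 71.6 and 61.5 kb. In all, 21 of the 31 ceiling peaks had no other listed peak within 10 kb, as had 155 of all 252 X peaks. The interval for the grouped share of ceiling peaks (32.3%, 16.7 to 51.4) included the share of all X peaks (38.5%).

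Width and score were related in rank on X (Spearman's rho = 0.64 over 252 peaks of 1 library, against 0.65 on II to 0.70 on III). The median width was 999 bp for weak peaks and 1053, 1128, 1285 and 1438 bp in the successive classes up to 3100. At the ceiling it was 2169 bp, and each of the 31 ceiling peaks was wider than the median X peak of 1104 bp. Ceiling peaks made up 12.3% of the X peaks and 23.1% of the bases in them, and weak peaks made up 27.0% and 18.4%.

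The 10 widest peaks held 14.5% of the 374 kb covered on X, and 6 of them were at the ceiling. Only 5 X peaks were at least 5000 bp wide. These lay at 16929008 to 16939824 (10817 bp), 2056684 to 2064281 (7598 bp), 9883551 to 9890040 (6490 bp, score 2338), 12662834 to 12668773 (5940 bp) and 3111654 to 3116672 (5019 bp, score 2021). Those given without a score were at the ceiling. The next 5 were at 4144198 to 4148347, 14815468 to 14819526, 9604671 to 9608175, 5102524 to 5106016 and 13794474 to 13797842, with widths from 4150 down to 3369 bp. Of these, the peak at 5102524 scored 517 at a width of 3493 bp, the lowest score of the 10, and that at 14815468 scored 1422.

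The lowest scores were found in all parts of X and in groups as well as alone. Of the 10 lowest, 6 lay in the centre, 3 in the right part and 1 in the left part, and 6 of the 10 were grouped. The lowest of all, 50.5, belonged to a peak at 17180852 to 17181773, and the next 2, 50.7 and 50.8, to peaks at 4971234 to 4972472 and 8835466 to 8836419. Scores of 51.7, 52.2 and 53.0 were listed at 9213341 to 9214379, 14974143 to 14974943 and 16497800 to 16499004. The last of these lay 4.56 kb from a ceiling peak, whereas that at 9213341 was 133 kb from the nearest peak of any score. The remaining 4, at 5278863 to 5279842, 12975264 to 12976281, 151619 to 152664 and 6088695 to 6089788, scored 54.1, 54.3, 57.1 and 57.6.

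The first peak of X began at base 1, was 733 bp wide, the narrowest on X, and scored 906. The next peak lay 41.5 kb further in. The last peak, at 17709930 to 17712300, was 2371 bp wide and scored 275, with 72.9 kb to the peak before it. Both outermost peaks were therefore isolated, and the dense stretch at the left end began inside the tip. The width of the first peak is bounded by the start of the chromosome.

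Intervals without a peak took up most of X. The median interval between neighbouring peaks was 42.8 kb, with quartiles of 11.5 and 103 kb, against medians of 5.66 kb on III to 9.32 kb on V. Of the 251 intervals 60 were at most 10 kb, 127 were between 10 and 100 kb, and 64 were 100 kb or longer. These 64 together measured 11.3 Mb, or 63.8% of X, against 4.63% of III to 29.3% of V. A fixed length of 100 kb is reached more often where peaks are sparse. The mean interval was 69.1 kb on X, against 12.9 kb on I to 25.4 kb on V. Neither the medians nor these shares are corrected for that density. Whether reads could be placed uniquely in these intervals is not known from the list.

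Long intervals filled more of the centre than of the ends. Those of 100 kb or more took up 55.1% of the left part and 52.2% of the right part, against 73.9% of the centre. The median interval was 31.6 kb in the left part and 40.1 kb in the right part, against 67.5 kb in the centre. Peaks were sparser in the centre, and neither these shares nor these medians are corrected for that density. Of the 15 intervals of 200 kb or more, 4 lay in the left part, 1 in the right part and 10 in the centre. The right part, close to the left in density, thus had fewer intervals of 200 kb or more, on small counts. For intervals of 100 kb or more the order was the other way, with 16 in the right part and 12 in the left. Neither difference was tested.

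**Figure D5:**
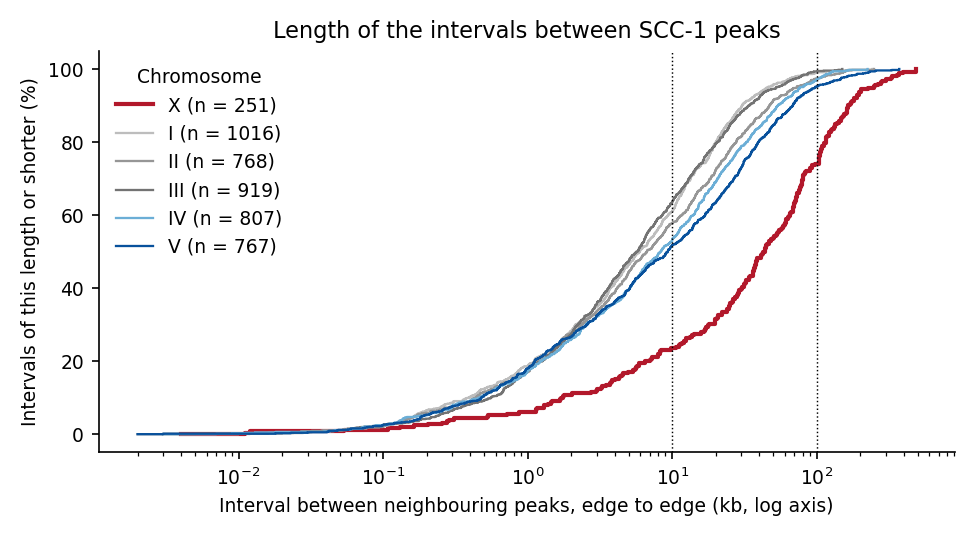
Cumulative share of the intervals between neighbouring peaks (%) by length in kb (log axis), for X and the 5 autosomes. Dotted lines stand at 10 and 100 kb. On X 60 of 251 intervals were at most 10 kb and 64 were 100 kb or longer, and the X curve lies to the right of all 5 autosomal curves from about 1 kb upwards.

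The 10 longest intervals summed to 3.40 Mb, or 19.2% of X, of which 7 lay in the centre and 3 in the left part. The longest, from 3651044 to 4137131, measured 486 kb, which was 7.04 times the mean interval of X. On the autosomes the longest interval was 11.5 (IV) to 19.0 (I) times the chromosome's own mean, a larger multiple than on X in each of the 5. The longest of many intervals tends to be a larger multiple than the longest of few. X had 251 intervals, against 767 on V to 1016 on I, and the multiples are not corrected for that.

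Next came 7265679 to 7661268 with 396 kb, 5430175 to 5800795 with 371 kb and 6379048 to 6737228 with 358 kb. All 3 lie on the left-hand side of the centre. They were followed by 11606518 to 11937048 (331 kb), 8422610 to 8747945 (325 kb) and 12670986 to 12975263 (304 kb). The last 3 were 2402695 to 2688142 (285 kb), 3128320 to 3406668 (278 kb) and 10766867 to 11030802 (264 kb).

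Weak peaks bordered several of these 10 intervals. Of the 20 bordering peaks 8 were weak and 1, at 5428886 to 5430174, was at the ceiling, and their median score was 149, against 178 for all X peaks. Among all 252 X peaks, 27.0% were weak and 12.3% were at the ceiling. Whether the 20 bordering peaks differ from these shares was not tested. Around the interval from 12670986 to 12975263 the bordering peaks scored 60.0 and 54.3, and around that from 3128320 to 3406668 they scored 73.4 and 59.1. By contrast, the interval from 11606518 to 11937048 ended at a peak scoring 2353. Weak peaks at the edges make the lengths of these intervals depend on the calling threshold. With the 184 X peaks scoring 100 or more, intervals of at least 100 kb took up 72.2% of X.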

How the data were processed

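The peak list of the ChIP library was the only file used. Peaks were called with MACS on WormBase WS220, per the file headers and the source column, and BWA and ce10 are named in the submitters' processing notes. For tool versions, the calling threshold and the control the status is: not given in the sources used here. The score is the authors' deposited value for each peak. Read depth behind the list is unknown.

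Peaks were placed by midpoint. Density ratios and shares carry exact Clopper-Pearson 95% intervals, densities exact Poisson intervals, and medians order-statistic intervals, combined by square-and-add for differences. No test was run. The procedures were tested on simulated lists. For the intervals these had independent counts and values without ties, so grouped peaks and the tied ceiling score were not covered.

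The members, the divisions and the rules were chosen with earlier results of these data known. Named were the 10 longest intervals, the 10 groups with most peaks (8 groups tied at 3 peaks were taken by shorter span, and the last 2 of them were added later), the 10 widest, the 10 lowest-scoring and the 10 most isolated ceiling peaks, and the first and last peak. Windows, close pairs and stretches between strong peaks were chosen after their values were seen. No genome of WS220 was used, and therefore peaks were not matched to genes and no sequence is shown. Alternatives varied the division of X, the score threshold, the joining gap and the merging of peaks. Values were computed in Python 3.11.15 with pandas 2.3.3, numpy 2.4.6 and scipy 1.17.1, and drawn with matplotlib 3.10.9.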

Additional observations from a re-analysis of the deposited data

How the results depend on the processing

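No paired analysis was possible because the peak list comes from 1 library and no input values were used, and for the same reason no replicate could be left out. Of 61 alternative values for 10 results, 52 kept their direction and stayed within the main value's interval or, for the length in long intervals, within 1.5 times. Among the 52 are values fixed in advance. Leaving out the group of 10 peaks, which lies in the left part, cannot change the density ratio or ceiling share of the right part against the centre. The ratio of the left to the right part (1.05) turned to 0.935 without the outermost 0.5 Mb, and, in alternatives added after seeing the data, to 0.920 without the group of 10 peaks and 0.839 with each group counted once. The cause was not tested. The first takes out the 21 peaks of the first 500 kb and the 13 of the last 500 kb. The last condenses the groups along all of X, of which 13 lie in the left part and 10 in the right part. The share of grouped peaks (38.5%) follows its definition: it was 30.2% with a joining gap of 5 kb, 51.2% with 20 kb, 31.4% after merging under 1000 bp and 32.1% for scores of 100 or more. The length in long intervals (63.8%) was 42.2% for intervals of at least 150 kb and 25.6% for at least 200 kb. Ratios of the ends to the centre stayed above 1 in all 8 alternatives run for each, from 1.33 to 1.82 at the left and from 1.38 to 1.59 at the right. At the right, the alternative without the group of 10 peaks could only return the main value. The interval included 1 for 2 of the 8 at each end. At the left these were without the outermost 0.5 Mb and with each group counted once. At the right they were with the outer 2 of 10 parts and with the higher-scoring 50%. Read depth was not available, so peaks missed under the calling threshold cannot be counted.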
